A study of Mus musculus with 15 samples.

Results

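The genes followed here were 9 that sense, deliver or respond to thyroid hormone: the receptors *Thra* and *Thrb*, the partner receptors *Rxra* and *Rxrg*, the deiodinase *Dio2*, the cytosolic binding protein *Crym*, and *Klf9*, *Hr* and *Nrgn*, which are widely used as hormone-responsive genes. They were picked by name among the 38561 mouse gene identifiers that were counted, 20928 of which had a read in at least 1 library. Their course was measured by RNA sequencing in Purkinje cells (PCs) taken from male mice, whose strain the labels spell C56/BL6, at 5 ages in days after birth: P0, P4, P8, P14 and P21. Each age had 3 biological replicates, 15 libraries in all, and no group was treated. Single PC somata were cut out by laser from P4 onward, whereas clusters of PCs were taken at P0, when single cells were hard to isolate, so the way of capture and the age cannot be told apart between P0 and the later days. Some 1000 PCs were gathered per sample.

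Thyroid hormone acts through receptors that sit on DNA as a pair with a retinoid X receptor (RXR). Without hormone the pair recruits corepressors, and with the active form of the hormone, T3, it recruits coactivators. Cells take up hormone through membrane transporters, make T3 from its precursor T4 with the type 2 deiodinase and degrade it with the type 3 enzyme. In the cerebellum, too little hormone in the first postnatal weeks is known for stunting PC dendrites and delaying the migration of granule cells.

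Of the 9 genes, 8 had enough reads to be tested and *Crym* did not. With postnatal day as a number, 2 of the 8 rose, *Klf9* and *Hr*, and 3 fell, *Thra*, *Rxrg* and *Nrgn* (edgeR's quasi-likelihood test, Benjamini-Hochberg adjusted over 14293 genes). Across those 14293 genes 12.1% rose and 14.1% fell, and their median slope, in log2 units per day, was -0.0077 against -0.0727 for the 8 genes. A change at any of the time points was called for *Thra*, *Rxrg*, *Klf9* and *Hr*, 4 of the 8, where 19.3% of all tested genes were called. *Thrb*, *Rxra* and *Dio2* passed neither test.

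**Figure D1:**
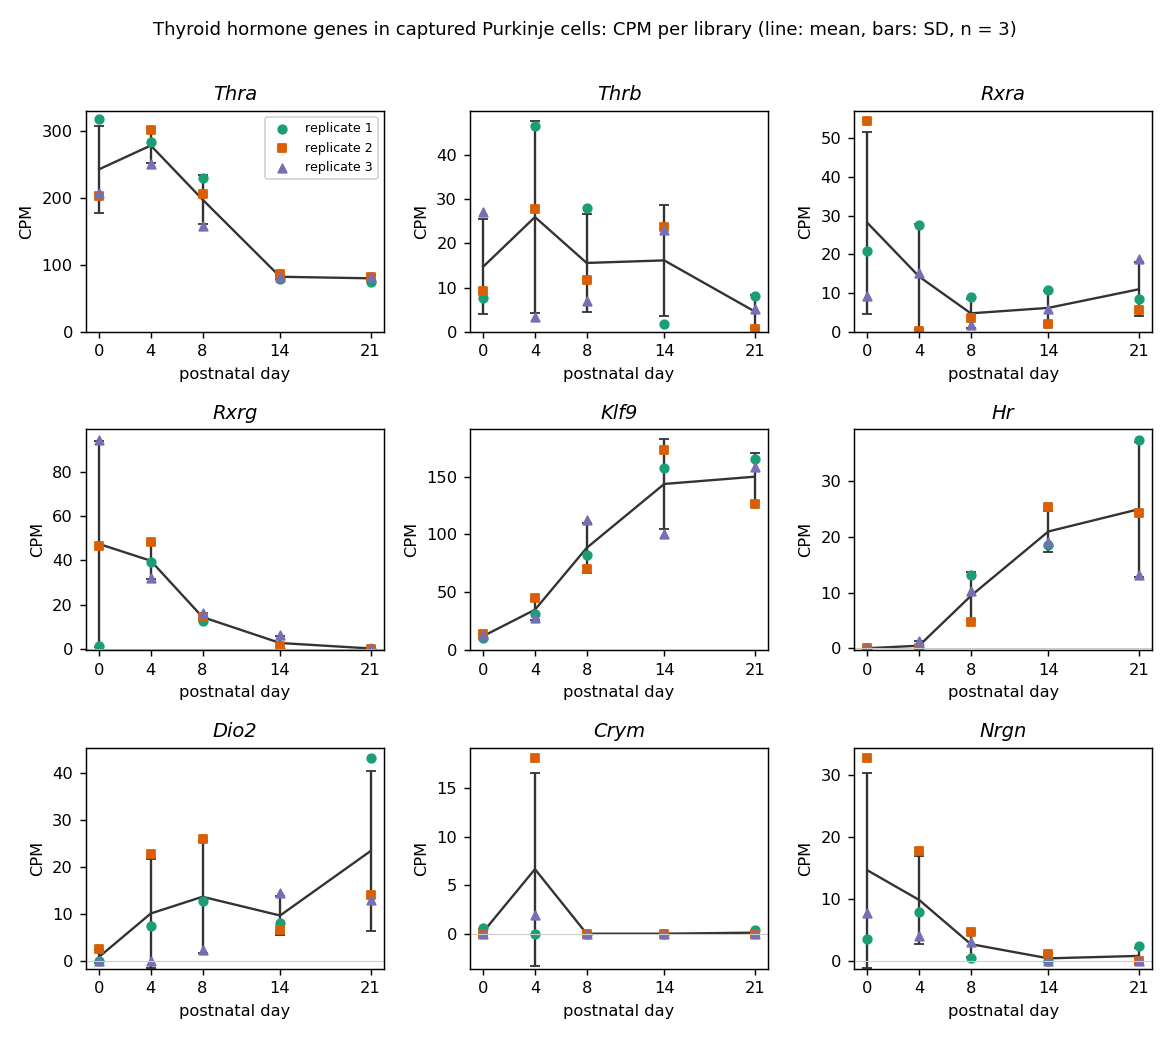
Library-size-scaled counts (CPM, vertical axes, linear) of the 9 genes against postnatal day, with 1 symbol per library and replicate number, a line through the means and SD bars of 3 libraries. *Klf9* climbs from P0 and *Hr* from P4 up to P14, *Thra* drops between P8 and P14, *Rxrg* and *Nrgn* decline toward 0, and the 3 libraries of a time point scatter widely for *Thrb*, *Rxra* and *Dio2*.

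Total counts on genes ranged from 3409371 to 7814951 per library. The capture was checked with marker genes. All 6 PC markers were detected at every age, and their summed level rose from 5340 ± 737 CPM at P0 to 42941 ± 5287 CPM at P21 (SD, n = 3). The 8 markers of astrocytes and Bergmann glia were also present at every age, and their sum peaked at P8 with 9102 ± 820 CPM, after 4608 ± 864 CPM at P0 and 7282 ± 1918 CPM at P4. It was 6233 ± 218 CPM at P14 and 3651 ± 702 CPM at P21. Relative to the PC markers this glial sum went from 86.3% at P0 to 8.50% at P21, and its part in the results below was not tested. The sum hides unlike members: of the 8 glial markers *Slc1a3*, *S100b* and *Hopx* rose with day and *Fabp7* and *Aldh1l1* fell, with *S100b* going from 16.6 ± 8.73 to 279 ± 38.8 CPM and *Fabp7* from 2687 ± 593 to 186 ± 64.2 CPM between P0 and P21 (adjusted p = 0.0124 and 5.42e-04). Reads assigned to no gene feature made up 24.1% to 29.8% of all reads tallied at P0 and 17.2% to 19.1% at P21. The counting required a read to lie fully within a feature, so reads only partly inside an exon are among them. In such bulk samples, fewer cells of a type and less RNA per cell cannot be told apart.

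*Thra* (ENSMUSG00000058756, chromosome 11, 98740638 to 98769006 of GRCm38, plus strand) encodes the receptor TRα. Its level was 318, 204 and 208 CPM in the P0 libraries, 284, 302 and 251 at P4, and 230, 206 and 158 at P8. It was then 79.5, 86.0 and 81.6 CPM at P14 and 75.1, 82.6 and 82.5 CPM at P21. Every library of P0, P4 and P8 thus lay above every library of P14 and P21, and the last 6 libraries hardly differed. The mean went from 243 ± 65.2 CPM at P0 to 80.1 ± 4.29 CPM at P21 (SD, n = 3), a level 3.04-fold lower. The fitted slope was -0.10 ± 0.01 log2 units per day (SE, edgeR adjusted p = 2.98e-05). Most of the decline fell into a single interval, P8 to P14, at -1.27 ± 0.21 on the log2 scale (adjusted p = 0.00369), whereas P0 to P4 gave 0.20 ± 0.21 (adjusted p = 0.767) and P14 to P21 gave -0.04 ± 0.21 (adjusted p = 1). Between P4 and P8 the libraries did not overlap, but the change of -0.49 ± 0.21 did not pass (adjusted p = 0.352). *Thra* encodes both a hormone-binding receptor and a splice form that binds no hormone, and counts per gene cannot separate them. It shares 263 exon bases with *Nr1d1*, the clock repressor REV-ERBα, on the opposite strand, and the strand setting of the counting is not stated in the sources used here.

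*Thrb* (ENSMUSG00000021779, chromosome 14, 17660261 to 18038090, plus strand) encodes TRβ, the receptor that is usually described as the later one in brain development. It had 7.69, 9.33 and 27.2 CPM at P0, 46.6, 27.8 and 3.43 at P4, and 28.0, 11.6 and 7.05 at P8. At P14 it had 1.66, 23.8 and 23.0 CPM, and at P21 8.01, 0.635 and 5.12 CPM. The libraries of every time point overlapped with those of the next. The slope was -0.08 ± 0.05 log2 units per day (adjusted p = 0.268), and the change from P0 to P21 was -1.69 ± 1.09 (adjusted p = 0.294). With this scatter a change was not detectable.

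Both receptor genes were compared within each library after division by exon length, which takes library size out of the comparison. As RPKM, which are counts per exon length and library size, *Thra* went from 52.7 ± 14.1 at P0 to 17.4 ± 0.929 at P21, and *Thrb* from 1.99 ± 1.46 to 0.620 ± 0.502 (SD, n = 3). *Thra* was the higher of the pair in 15 of 15 libraries. *Thrb* made up between 0.477% and 14.96% of the pair, and both extremes were late libraries, P21 replicate 2 and P14 replicate 3. The mean log2 ratio of *Thrb* to *Thra* was -4.84 ± 1.41 in the 6 libraries of P0 and P4 and -4.54 ± 2.001 in the 6 of P14 and P21 (SD). The difference of 0.29 was small beside that spread (2-sided exact permutation test over 924 arrangements, p = 0.771, the same after adjustment over 2 ratios, smallest possible p 0.00216). Leaving out P4 replicate 3, P14 replicate 2 or P14 replicate 3 turned its sign, to -0.11, -0.11 and -0.12.

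The partner receptors took different courses. *Rxrg* (ENSMUSG00000015843, chromosome 1, 167598384 to 167639623, plus strand), which encodes RXRγ, had 1.54, 46.2 and 94.2 CPM at P0, 39.2, 48.0 and 32.0 at P4, and 12.7, 14.3 and 16.1 at P8. Levels at P14 were 0.184, 1.53 and 6.33 CPM, and at P21 the gene was at 0 in 2 libraries and at 0.641 CPM in the third. P4, P8 and P14 were separate from one another, while P0 replicate 1 was as low as the late libraries. That library had 4687163 counts. Its PC marker sum was the lowest of the 15 libraries (4549 CPM, against 6007 and 5465 CPM in the other P0 libraries). Its share of reads assigned to no gene feature was the highest (29.8%). So was its vascular marker sum (121 CPM, against 33.5 and 73.4 CPM). The part of these in its *Rxrg* level was not tested. The slope was -0.36 ± 0.06 log2 units per day (edgeR adjusted p = 1.90e-04), and 4 counts in all were left at P21. Without P0 replicate 1 it was called too (adjusted p = 8.10e-06). The call on the slope was lost with limma-voom (-0.22 ± 0.11, adjusted p = 0.158), which still called a change of *Rxrg* at any time point.

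*Rxra* (ENSMUSG00000015846, chromosome 2, 27676440 to 27762957, plus strand), which encodes RXRα, had 20.96, 54.4 and 9.12 CPM at P0, 27.5, 0.259 and 15.1 at P4, and 8.87, 3.62 and 1.81 at P8. It had 10.7, 1.92 and 5.95 CPM at P14 and 8.35, 5.72 and 18.9 CPM at P21. Neighbouring ages overlapped throughout. Neither the slope of -0.06 ± 0.04 log2 units per day (adjusted p = 0.326) nor the change from P0 to P21 of -1.35 ± 1.12 (adjusted p = 0.432) passed.

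Per exon length, *Rxrg* was the higher of the RXR pair in all 3 libraries of P4 and of P8 and the lower in all 3 libraries of P21. At P0 it made up 14.9%, 66.9% and 96.1% of the pair, and at P14 3.94%, 65.5% and 71.7%. The log2 ratio of *Rxrg* to *Rxra* averaged 2.62 ± 3.66 at P0 and P4 and -2.36 ± 2.74 at P14 and P21 (SD, 6 libraries each), a difference of -4.99 (2-sided exact permutation test, p = 0.0173, adjusted p = 0.0346 over 2 ratios). The size depends on the 0.5 count added to each gene, because *Rxrg* was at 0 in 2 P21 libraries. The adjusted p was above 0.05 when any of 8 of the 12 libraries was left out, namely P0 replicate 3, P14 replicate 1 and any of P4 or P21, up to 0.0866 without P4 replicate 2. The difference stayed negative in all 12 cases.

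**Figure D2:**
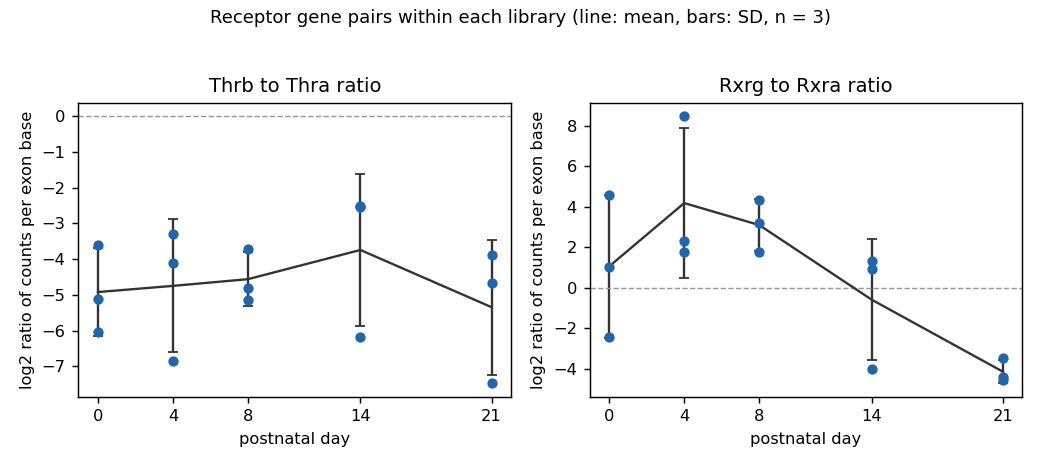
Log2 ratio of counts per exon base within each library against postnatal day, for *Thrb* over *Thra* (left) and *Rxrg* over *Rxra* (right), with 1 point per library, a line through the means, SD bars (n = 3) and a dashed line at equal levels. All 15 points on the left lie below 0, and on the right the points lie above 0 at P4 and P8 and below 0 at P21.

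The stretches just ahead of the transcription starts were searched for the receptor motif, AGGTCA on either strand, since hormone receptors and RXRs bind repeats of it. RefSeq promoters of GRCm38.p6 were at hand for 6 of the 9 genes, 9 promoters in all, and those of *Thra*, *Hr* and *Crym* could not be searched. The 250 bases before each start were read. The motif stood in 3 of the 9, one each of *Rxrg*, *Rxra* and *Thrb*, and 14.02% of all 32851 promoters held it. The spaced repeat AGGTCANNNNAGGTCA on either strand, the arrangement that thyroid hormone receptors prefer, was in none of the 9 and in 0.0152% of all promoters. The *Klf9* promoter held no copy of the motif. The 4 matches are shown because they lie in the receptor genes themselves, each as 30 bases read along the gene's strand with the motif in capitals (TGACCT is the motif on the other strand). They are letter matches, and no binding was measured.
Rxrg, chr1:167618165-167618194, plus strand: atcggggttgaaAGGTCAgctgaaagcttc
Rxra, chr2:27709193-27709222, plus strand: tagaaatgggtgTGACCTgagtaatggtca
Rxra, chr2:27709232-27709261, plus strand: gggtggcaggaaAGGTCAgtcactctctgt
Thrb, chr14:17660764-17660793, plus strand: aggagagttgacAGGTCAagggaatagggc
In *Rxra* both matches fell in the same promoter. The *Rxrg* and *Rxra* promoters with a match lay well inside the gene, and those near the gene start held none. The *Thrb* match was in the promoter near the gene start. Counts per gene do not show which start was used. Of these 3 genes *Rxrg* passed the tests with age, and *Rxra* and *Thrb* did not.

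*Klf9* and *Hr*, both hormone-responsive genes that encode nuclear proteins, rose. *Klf9* (ENSMUSG00000033863, chromosome 19, 23141226 to 23168134, plus strand) encodes a zinc finger transcription factor that is induced directly by T3 in neurons. Its level was 10.4, 13.7 and 12.8 CPM at P0, 31.4, 45.4 and 28.3 at P4, and 82.2, 70.2 and 113 at P8. It reached 158, 173 and 100 CPM at P14 and 165, 126 and 158 CPM at P21. The first 3 ages did not overlap with one another, and P14 and P21 did. P21 was 12.2-fold higher than P0 (log2 change 3.61 ± 0.32, adjusted p = 4.97e-07), and the slope was 0.17 ± 0.03 log2 units per day (adjusted p = 7.07e-05).

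The early steps of *Klf9* were 1.51 ± 0.30 from P0 to P4 (adjusted p = 0.0134) and 1.33 ± 0.29 from P4 to P8 (adjusted p = 0.0313) on the log2 scale. From P8 to P14 the change was 0.70 ± 0.28 (adjusted p = 0.267), and from P14 to P21 it was 0.06 ± 0.28 (adjusted p = 1). The first call was lost without P0 replicate 1 (adjusted p = 0.0562) or P4 replicate 2 (adjusted p = 0.0546). The second was lost with the replicate number as a block (adjusted p = 0.0591) and without P4 replicate 1, P4 replicate 3, P8 replicate 1, P8 replicate 3 or P14 replicate 1 (adjusted p from 0.0553 to 0.181). With limma-voom neither step passed (adjusted p = 0.181 and 0.0626), nor did either in edgeR fits of only the 2 ages compared (adjusted p = 0.538 and 0.135). The fitted step remained between 1.28 and 1.61 in the former and between 1.11 and 1.57 in the latter when single libraries were left out.

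*Hr* (ENSMUSG00000022096, chromosome 14, 70552212 to 70573548, plus strand) encodes Hairless, a corepressor that binds thyroid hormone receptors. No read was counted in any P0 library, nor in P4 replicates 1 and 2, and P4 replicate 3 had 1.37 CPM. The gene then stood at 13.1, 4.77 and 10.3 CPM at P8, at 18.6, 25.3 and 19.0 CPM at P14, and at 37.4, 24.4 and 13.1 CPM at P21. P4, P8 and P14 were separate from one another, and P14 and P21 overlapped. Against the limit that 3 counts per library set at P0, 0.593 CPM on average, P21 was at least 42.1-fold higher. The slope was 0.35 ± 0.09 log2 units per day (adjusted p = 0.00464) and the change at any time point passed too (adjusted p = 0.00162). From P4 to P8 the fitted change of 4.27 ± 1.202 did not pass in edgeR (adjusted p = 0.129), whereas DESeq2 and limma-voom called it. The mean of *Hr* was highest at P21, at 25.0 ± 12.1 CPM (SD, n = 3). Over the same ages the glial markers *S100b*, *Hopx* and *Slc1a3* rose with day, and *Fabp7* and *Aldh1l1* fell. *Gfap* and *Aqp4* were highest at P8, as was the glial sum, and *Gdf10* at P14. The part of glia in the course of *Hr* was not tested.

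*Nrgn* (ENSMUSG00000053310, chromosome 9, 37544492 to 37552904, minus strand) encodes neurogranin, a calmodulin-binding protein of forebrain dendrites that responds to hormone there. In these PCs it was low and fell. It had 3.46, 32.7 and 7.70 CPM at P0, 7.85, 17.7 and 3.94 CPM at P4, and 0.403, 4.58 and 3.07 CPM at P8. Of the 6 later libraries 4 had no read, and P14 replicate 2 and P21 replicate 1 had 1.15 and 2.34 CPM. All 6 libraries of P0 and P4 lay above all 6 of P14 and P21, although neighbouring ages overlapped. The slope was -0.24 ± 0.07 log2 units per day (adjusted p = 0.0210). The call was lost without P0 replicate 2, the highest library (adjusted p = 0.0859), and without P0 altogether (adjusted p = 0.103). The change from P0 to P21 was -4.31 ± 1.84 on the log2 scale (adjusted p = 0.105), and DESeq2 and limma-voom called it (adjusted p = 0.0265 and 0.0209). It also passed without P21 replicate 1, whose removal leaves no read at that age (adjusted p = 0.0242).

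*Dio2* (ENSMUSG00000007682, chromosome 12, 90724552 to 90738438, minus strand) encodes the type 2 deiodinase, which in brain is known mainly from astrocytes and tanycytes. It was at 0 in P0 replicates 1 and 3 and at 2.38 CPM in replicate 2, and had 7.36, 22.8 and 0 CPM at P4 and 12.7, 25.9 and 2.17 at P8. At P14 it had 7.91, 6.51 and 14.4 CPM, and at P21 43.1, 13.98 and 12.97 CPM. All libraries of P14 and P21 were above those of P0, while those of P4 and P8 together ran from 0 to 25.9 CPM. The slope of 0.13 ± 0.07 log2 units per day (adjusted p = 0.210) did not pass in edgeR, and limma-voom called it (0.19 ± 0.05, adjusted p = 0.0111). The change from P0 to P21, 4.83 ± 1.69, lay at the threshold (edgeR adjusted p = 0.0501) and was called by DESeq2 (adjusted p = 0.00358), by limma-voom (0.0261), without the filter on low counts (0.0341) and with the replicate block (0.0281). P0 replicate 2 held all 12 counts of that age, and the fitted change was 9.93 without it (adjusted p = 0.0131). The change also passed without P4 replicate 2 or P4 replicate 3 (adjusted p = 0.0463 and 0.0217). It shares 182 exon bases with *Gm26512*, a noncoding RNA on the opposite strand. The mean of *Dio2* was highest at P21, at 23.3 ± 17.1 CPM (SD, n = 3), an age at which the glial sum was lowest. Among the glial markers only *S100b* was highest at P21, and the others were highest at P8 or P14. The part of glia in these values was not tested.

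*Crym* (ENSMUSG00000030905, chromosome 7, 120186380 to 120202111, minus strand) encodes μ-crystallin, which binds T3 in the cytosol. It had 140 counts in P4 replicate 2, 11 in P4 replicate 3, 3 in P0 replicate 1 and 1 in P21 replicate 1, and none in the other 11 libraries. P4 replicate 2, the library with the highest total (7814951 counts), thus held nearly all of its reads, at 18.1 CPM. With the filter on low counts, the edgeR fit of all libraries did not test it, and a single library gives no course. A change at any time point was called for it without that filter, and also without P4 replicate 1. A fall with day was called without P21 replicate 1.

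**Figure D3:**
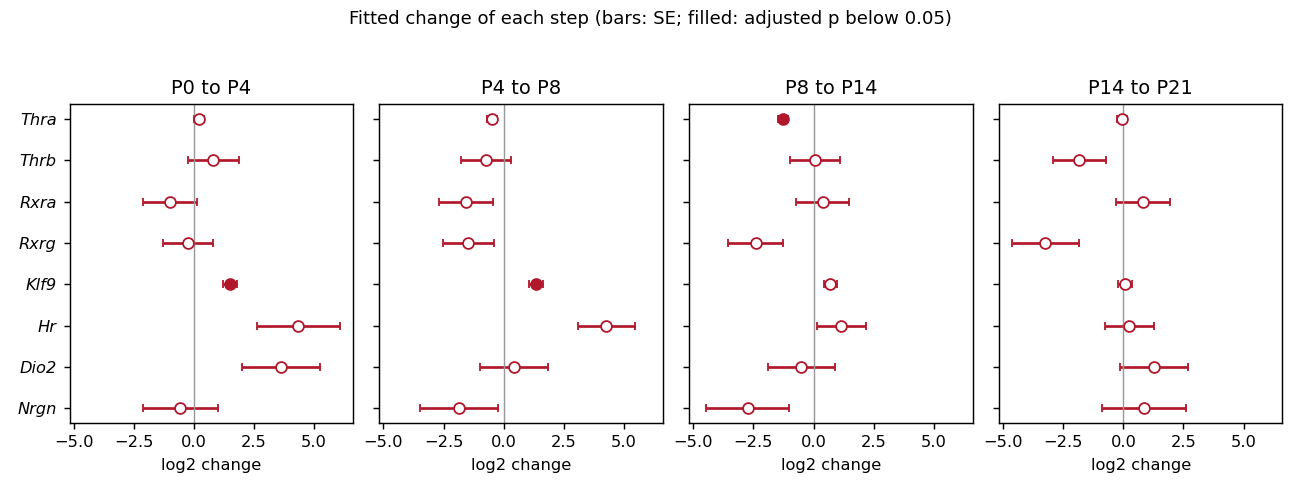
Fitted log2 change (horizontal axes) of the 8 tested genes over each of the 4 intervals between neighbouring ages, with SE bars and filled points where the edgeR adjusted p is below 0.05. *Klf9* is filled over P0 to P4 and P4 to P8 and *Thra* over P8 to P14, and no gene is filled over P14 to P21; values of *Hr* and *Dio2* over P0 to P4 rest on P0 levels at or near 0.

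Set in order, the calls of the 4 intervals were 1 gene from P0 to P4, *Klf9* (1.97% of all tested genes were called), 1 from P4 to P8, *Klf9* (1.13%), and 1 from P8 to P14, *Thra* (2.67%). None of the 8 passed from P14 to P21, where 0.329% of all genes did. In that last interval 1 of the 8, *Rxrg*, had an unadjusted p below 0.05 in edgeR (0.0340), and DESeq2 and limma-voom made 0 calls too, with 1 and 0 genes at an unadjusted p below 0.05. Between P0 and P21 directly, *Klf9* and *Hr* were higher (2 of 8, with 12.2% of all genes) and *Thra* and *Rxrg* lower (2 of 8, with 10.6% of all genes).

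Around these genes, 35 others of the pathway were read from lists chosen with earlier results of these data known. Of 31 tested, 8 rose and 7 fell with day, where 12.1% and 14.1% of all tested genes did, and their median slope in log2 units was 0.0153 per day. *Rxrb*, the remaining RXR, did not pass (0.05 ± 0.03 log2 units per day, adjusted p = 0.202), with 14.6 ± 10.8 CPM at P0 and 25.1 ± 7.52 CPM at P21 (SD, n = 3).

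Hormone supply was represented by transporters, deiodinases and carriers. *Slc7a5*, the light chain of the amino acid and hormone transporter LAT1, fell from 79.2 ± 24.0 to 27.6 ± 12.5 CPM (slope -0.09 ± 0.02, adjusted p = 0.00243, and 0.0921 on log2(day + 1)). *Slc7a8*, the light chain of LAT2, had 7.35 ± 9.67 CPM at P0, 73.9 ± 8.72 at P8 and 70.5 ± 12.6 at P21, a change at any time point (adjusted p = 0.0468) with a slope that did not pass (0.10 ± 0.05, unadjusted p = 0.0332, adjusted p = 0.101). DESeq2 and limma-voom called that slope (adjusted p = 0.0484 and 0.0461), and edgeR called it on log2(day + 1) (adjusted p = 0.00647). The change of *Slc7a8* from P0 to P21, 3.25 ± 0.80 on the log2 scale, passed in edgeR (adjusted p = 0.0075). *Slco1c1*, the T4 transporter OATP1C1 of brain vessels and astrocytes, scattered from 0 to 32.7 CPM and was not called (adjusted p = 0.529).

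The inactivating deiodinase gene *Dio3* had 1 count at P0, 15 at P4 and 3 at P21, each in a single library, and none at P8 and P14. *Dio1* and *Serpina7*, which encodes the thyroxine-binding globulin of blood, had no counts in any library. *Ttr*, the thyroxine carrier made by the choroid plexus, fell from 20.5 ± 13.2 CPM at P0 to 0.374 ± 0.647 CPM at P21 (slope -0.27 ± 0.08, adjusted p = 0.0231). That call was lost without P0 replicate 2 (adjusted p = 0.0623).

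Among 9 coregulators of the receptors 2 rose and 2 fell, against 12.1% and 14.1% of all tested genes. *Ncoa1*, the coactivator SRC-1, rose from 133 ± 19.0 CPM at P0 to 474 ± 33.4 CPM at P21 (slope 0.09 ± 0.01, adjusted p = 4.27e-07), and *Tbl1xr1*, a subunit of the corepressor complex, from 28.7 ± 7.98 to 70.5 ± 8.80 CPM (0.05 ± 0.01, adjusted p = 0.0139). *Ncoa3*, the related coactivator SRC-3, fell from 72.4 ± 34.6 to 27.8 ± 1.80 CPM (-0.07 ± 0.02, adjusted p = 0.00513). *Med1*, the Mediator subunit that contacts nuclear receptors, fell from 205 ± 46.4 to 118 ± 11.9 CPM (-0.05 ± 0.01, adjusted p = 0.00254). *Ncoa2*, the remaining SRC coactivator gene, had 48.0 ± 20.1 CPM at P0 and 96.1 ± 32.5 CPM at P21 and did not pass (0.04 ± 0.02, adjusted p = 0.107). The *Tbl1xr1* call was lost without P0 (adjusted p = 0.117).

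Of 15 further genes described as hormone targets in brain, 6 rose and 2 fell with day and 8 changed at any time point, beside 12.1%, 14.1% and 19.3% of all tested genes. *Itpr1*, the calcium release channel of PCs, rose from 177 ± 23.1 to 6371 ± 209 CPM, and *Mbp*, the myelin basic protein gene, from 8.08 ± 1.84 to 229 ± 151 CPM (SD, n = 3; adjusted p = 1.74e-05 and 2.62e-07). The oligodendrocyte marker sum, which includes *Mbp*, went from 32.2 ± 24.3 to 862 ± 368 CPM over the same days, and *Itpr1* is one of the 6 PC markers. *Dbp*, a clock-controlled transcription factor, rose from 0.811 ± 1.40 to 20.6 ± 4.16 CPM (adjusted p = 0.0233, lost without P0 at 0.111). *Reln*, the secreted guidance protein of granule cells, fell from 140 ± 16.4 to 40.5 ± 8.13 CPM (adjusted p = 6.99e-04), and *Ngfr*, a neurotrophin receptor, had 33.2 ± 10.5 CPM at P0, 167 ± 139 at P4 and 8.66 ± 11.6 at P21 (adjusted p = 0.0255, lost with limma-voom at 0.505 and with the replicate block at 0.0576). The *Ngfr* call was also lost without P4 replicate 3, P21 replicate 1 or P21 replicate 3 (adjusted p = 0.0661, 0.0799 and 0.0752). *Dab1*, the adaptor of the Reelin receptors, changed at any time point (adjusted p = 0.00748), from 365 ± 28.7 CPM at P0 through 164 ± 35.3 at P8 to 233 ± 32.7 at P21. The other 3 that rose, *Pcp2*, *Rora* and *Sema7a*, fell outside the rule for naming genes and were singled out after their values were seen. *Pcp2*, like *Itpr1*, is one of the 6 PC markers.

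**Figure D4:**
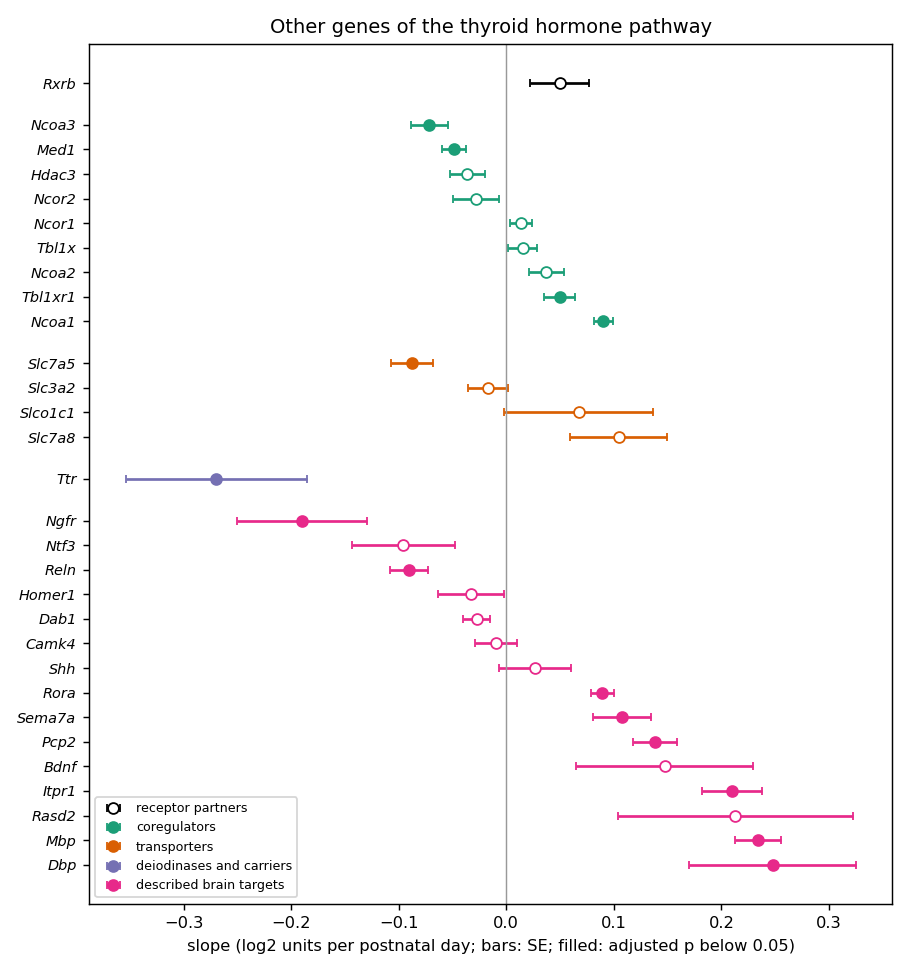
Slope in log2 units per postnatal day (horizontal axis) of tested genes of the pathway lists, with SE bars, 1 colour per list and filled points where the edgeR adjusted p is below 0.05. Filled points lie on both sides of 0 among the coregulators and the described brain targets, and *Slc7a5* is filled to the left of 0 among the transporters.

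To place each course among all genes, the log2 CPM of the 8 tested genes was correlated with that of 11279 genes reaching 10 CPM over the 15 libraries, which share age, depth and capture, and the coefficients are a description. *Klf9* was most like *Eps8l2*, an actin regulator (Pearson's r = 0.984), and *Rgs8*, a regulator of G protein signalling in PCs (0.981). *Rgs8* itself went from 23.4 CPM at P0 to 3394 CPM at P21. *Hr* was most like *Gpr146*, an orphan receptor (0.990), and *Fgfr3*, a growth factor receptor (0.983), which were at 0 and 0.0676 CPM at P0, and *Thra* like *Slc17a8*, the vesicular transporter VGLUT3 (0.969), and *Rps9*, a ribosomal protein gene (0.964).

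*Slc17a8* had 57.2 CPM at P4, 8.49 at P8 and 0 at P14, against 279, 198 and 82.4 CPM for *Thra*. In CPM, most of the loss of *Slc17a8* thus came from P4 to P8. The coefficient was taken on log2 CPM, where the later fall to 0 weighs more, so these values do not order the drops of both genes in time. The nearest genes of *Rxrg* were *Wdr6* (0.938) and *Gm6563* (0.923), and those of *Nrgn* *Banf1* (0.929) and *Gm14303* (0.912). The genes without a called course had lower coefficients, *Slc6a8*, the creatine transporter (0.907), and *Mkks* (0.890) for *Dio2*, *Rpap1* (0.886) and *Klhl2* (0.855) for *Rxra*, and *Zic2* (0.844) and *Zfp467* (0.802) for *Thrb*.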

How the data were processed

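PCs were captured by laser and their RNA amplified with a SMARTer Ultra Low kit, which does not mark strand, before library preparation. The authors trimmed the reads (cutadapt 1.2.1), aligned them to GRCm38/mm10 (GSNAP 2012-07-20) and counted unique reads per Ensembl gene in intersection-strict mode (HTSeq 0.5.3p9), as named in the submitters' processing notes. The deposited values are whole-number counts, 1 library per file, without normalization. HTSeq's tallies of reads not assigned to a gene were kept out of library sizes. The annotation release is not given in the sources used here.

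From these counts, CPM on effective library sizes and RPKM on summed exon lengths of GENCODE M21 were computed. Genes passing edgeR's filterByExpr by time point (14293) were tested in edgeR 4.0.16 (TMM, quasi-likelihood F test, R 4.3.3) on all 15 libraries, once with day as a number and once with time point as a factor, with Benjamini-Hochberg adjustment at 0.05. The biological coefficient of variation was 0.705. DESeq2 1.42.0 and limma 3.58.1 (voom) were alternatives, as were DESeq2's size factors, no filter, log2(day + 1) in place of day, a replicate block, fits without P0, on only the 2 ages compared or without each library, and, for the ratios, 1 count in place of 0.5. Ratios were tested with scipy 1.17.1 (Python 3.11.15). The scripts were tested on simulated data. No pair of replicates agreed within sampling noise. Limits from 3 counts cover counting error only.

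The genes and lists were chosen with earlier results of these data known. By the rule for names, the text gives all 9 genes, up to 3 rising and 3 falling called genes of each list by slope, *Rxrb*, *Slco1c1* and *Dio3*, and the 2 most correlated genes of each tested member. A gene of the lists that the rule also covers is counted in the totals and not reported here. Marker lists for granule neurons, Golgi, basket and stellate cells, vessels and microglia were read as well. Their summed levels ranged, as means per age, from 346 to 647, 17.1 to 355 (the highest at P0), 63.1 to 161, 29.8 to 75.8 and 3.43 to 20.4 CPM. The Golgi sum at P0 was nearly all *Sst*, at 354 CPM. The other Golgi markers, *Grm2*, *Slc6a5* and *Lgi2*, had 0.331, 0.946 and 0.398 CPM at P0 and were highest at P14.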

Additional observations from a re-analysis of the deposited data

How the results depend on the processing

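The numbers of the 9 genes that rose (2), fell (3), changed at any time point (4), changed from P8 to P14 (1) or P14 to P21 (0), or were higher (2) or lower (2) at P21 than at P0 stayed within 1.5 times under every alternative run for them. From P0 to P4 the count was 0, in place of 1, with limma-voom and in a fit of only the 2 ages, and 0 to 1 when single libraries were left out. From P4 to P8 it was 2 with DESeq2, 0 with the replicate block, 0 in a fit of only the 2 ages, and 0 to 1 when single libraries were left out. The cause was not tested. The difference in the log2 ratio of *Thrb* to *Thra* ranged from -0.12 to 0.88 without single libraries, below 0 in 3 of 12, and that of *Rxrg* to *Rxra* from -6.00 to -3.82, with an adjusted p above 0.05 in 8 of 12.

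Same-numbered replicates of different ages did not deviate together (mean correlation of deviations -0.0033 over 30 pairs, 0 above 0.1). These deviations thus showed no pairing of the libraries by number. With the replicate block 2 of the genes rose, 3 fell, 4 changed at any time point, and 3 were higher at P21 than at P0 in place of 2, and the differences of the ratios were 0.29 and -4.99. Over all genes, the block moved the counts of the 4 intervals to 226, 125, 338 and 35.

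Over all genes the main counts of the 4 intervals were 281, 162, 382 and 47. They were 773, 496, 844 and 175 with DESeq2, 283, 310, 600 and 53 with limma-voom, and 5, 99, 860 and 83 in fits of only the 2 ages. For *Thrb*, *Rxra* and *Dio2* the SE of the change from P0 to P21 was 1.09 to 1.69 on the log2 scale, which limits what could be detected. It was as large for *Rxrg* (1.49), *Hr* (1.72) and *Nrgn* (1.84). Of these, *Rxrg* and *Hr* were called, with changes of -7.37 and 10.03.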
